A study of Mus musculus with 6 samples.

Results

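The collagen genes are described here as a family of 44 genes among the 57127 listed in whole-epididymis count profiles of WT and Ocln-KO mice. Members were chosen by symbol alone: Col, a type number, the letter a and a chain number. They were sorted by the kind of assembly their chains build into 11 fibrillar collagens, 9 basement membrane collagens and 24 other collagens, the last made up of beaded filament, FACIT, short-chain network and transmembrane types and types XXVI and XXVIII. All libraries came from adult C57BL/6 mice, with 3 from wild type (WT) and 3 from mice lacking Ocln in the whole body (Ocln-KO), which were bred from heterozygous parents because the males are sterile. Ocln encodes occludin, a transmembrane protein of tight junctions. The study sought transcripts that differ between the genotypes, and as the deletion is not limited to a cell type, neither is the comparison. RNA was extracted from 3 pairs of mice, but the methods also speak of pooled RNA, so n counts libraries and p-values measure the spread between libraries. Although the extraction protocol in the sample records refers to prefrontal cortex, Crisp1, a secreted protein of the epididymal epithelium, lay between 12488 and 16769 CPM (counts scaled to a common library size) in WT and between 4439 and 9957 CPM in Ocln-KO.

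Collagens are triple helices of 3 chains that wind together in the endoplasmic reticulum and assemble outside the cell. Fibrillar types I and III give connective tissue its tensile strength, type IV forms the sheet-like network of basement membranes, type VI forms beaded filaments near cells, and FACIT collagens sit on the surface of fibrils. In the epididymis the coiled duct rests on a basement membrane and is wrapped by smooth muscle and fibroblasts, and its interstitium holds the fibrillar matrix.

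Total counts per library lay between 30646424 and 38870780, and 3 counts correspond to 0.0802 to 0.0942 CPM. Ocln itself had 85.9, 78.8 and 91.8 CPM in WT against 15.1, 15.3 and 14.9 CPM in Ocln-KO, without overlap. On the first principal component of all tested genes, with 47.2% of the variance, Ocln-KO replicate 3 stood apart at 86.3, against 17.7 and 29.1 for the other Ocln-KO libraries and -52.8 to -37.0 for WT. For many collagens that were highest in this library, the fold change is also given without it. CPM were scaled by TMM factors, and fold changes and adjusted p-values come from the quasi-likelihood test of edgeR, with Benjamini-Hochberg adjustment over the 19691 genes that passed a filter on low counts. Counts at an unadjusted p under 0.05 are given without a share over all genes and are not read as an excess. Such a p-value alone was not taken as a call. The marker gene Adipoq, for example, had an unadjusted p of 0.0498 and an adjusted p of 0.172 (edgeR). In RNA from a whole organ, fewer cells of a type and less RNA per cell cannot be told apart.

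Of the 44 collagen genes, all were detected in some library and 38 passed the count filter for testing. Collagen XII (Col12a1) was higher and collagen VIII chain Col8a2 was lower in Ocln-KO, and the other 36 did not pass at an adjusted p under 0.05. Thus 1 of 38 was called higher, where 3.91% of all tested genes were, and 1 of 38 was called lower, where 5.04% were. The log2 fold change was positive for 25 and negative for 13 members with a median of 0.25, beside a median of 0.01 over all tested genes. The genotypes did not overlap for 12 members (31.6%), 5 of them higher and 7 lower in Ocln-KO, against 36.3% of all tested genes. These shares were no larger than those of all genes, and the direction of the family rested on 1 library. Without Ocln-KO replicate 3, 19 members were positive and 20 negative with a median of -0.01, whereas without Ocln-KO replicate 1 the numbers were 27 and 12 with a median of 0.35. The calls moved with the tool and the library as well. limma-voom called the same 2 genes as edgeR. DESeq2 called 3 higher (Col12a1, Col7a1 and Col16a1) and 4 lower (Col8a2, Col4a4, Col24a1 and Col27a1) of 40 tested, where it called 7.12% and 7.63% of all its tested genes. With edgeR, 0 members were called higher without WT replicate 1, where 5 had an unadjusted p under 0.05, and 2 were without Ocln-KO replicate 1 (Col12a1 and Col11a1). As for lower calls, Col8a2 was lost without any 1 of the 6 libraries, and Col24a1 was called without Ocln-KO replicate 3. Over all genes, 770 were called higher and 992 lower with all libraries. Without WT replicates 1, 2 and 3 these became 4 and 19, 85 and 145, and 16 and 40. Without Ocln-KO replicates 1, 2 and 3 they became 782 and 875, 220 and 342, and 748 and 944. Calls lost without a WT library or Ocln-KO replicate 2 are thus not particular to collagens.

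**Figure D1:**
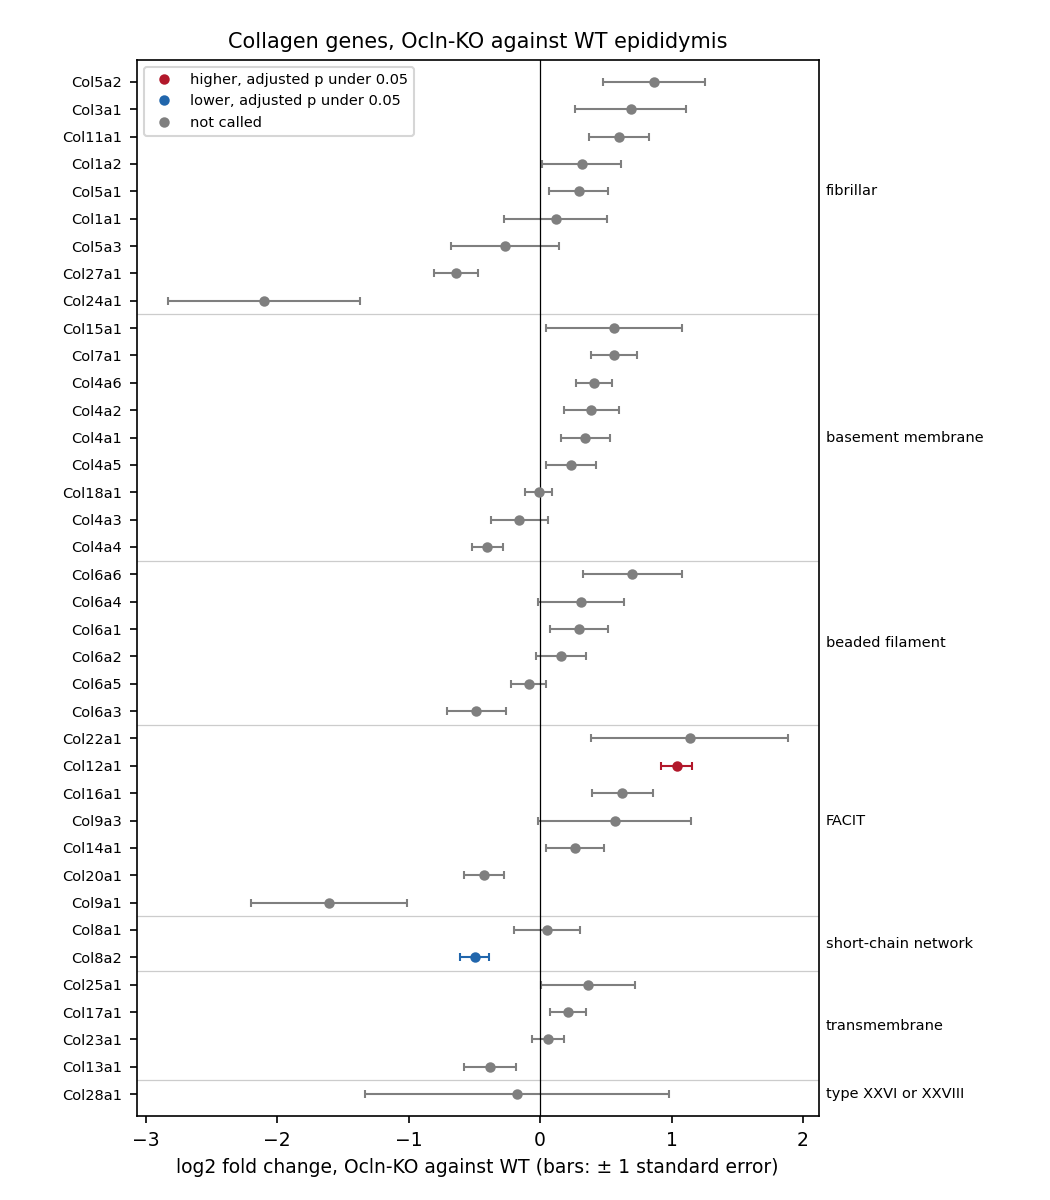
Log2 fold change of each of the 38 tested collagen genes (Ocln-KO against WT, horizontal axis), with bars of ± 1 standard error, grouped by type; points are coloured by the edgeR call. Col12a1 at 1.04 and Col8a2 at -0.50 are the coloured points, and the widest bars belong to low genes such as Col28a1.

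Among the fibrillar collagens, 9 of 11 were tested and 0 were called by edgeR, with 3 at an unadjusted p under 0.05. DESeq2 called 2 of them lower, Col24a1 and Col27a1. A positive log2 fold change was found for 6 of the 9 and the class median was 0.29, which became -0.10 without Ocln-KO replicate 3, with 3 of 10 positive. The type I chain Col1a1 (chromosome 11 from 94936224 to 94953042, plus strand) had 735, 774 and 905 CPM in WT against 424, 708 and 1489.6 CPM in Ocln-KO replicates 1, 2 and 3. Replicates 1 and 2 lay below every WT library and replicate 3 far above, so the groups overlapped and the log2 fold change of 0.12 (SE 0.39, adjusted p = 0.872, edgeR) was smaller than the spread. Without Ocln-KO replicate 3 it was -0.51 (adjusted p = 0.161, edgeR). Its partner in the type I helix, Col1a2 (chromosome 6 from 4504814 to 4541544, plus strand), had 699, 735 and 752 CPM in WT against 552, 754 and 1416 CPM in Ocln-KO. Here too the genotypes overlapped, with a log2 fold change of 0.32 (SE 0.30, adjusted p = 0.534, edgeR) that became -0.16 without replicate 3. Col3a1, the type III chain of more pliable fibrils (chromosome 1 from 45311538 to 45349706, plus strand), had 568, 559 and 634 CPM in WT against 455, 680.5 and 1705 CPM in Ocln-KO. Again replicate 1 lay below WT and replicate 3 far above it, and the log2 fold change of 0.69 (SE 0.42, adjusted p = 0.319, edgeR) became -0.05 without it.

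The other fibrillar chains were picked with their values known. Col5a2, a type V chain that sets fibril width, had 43.1 to 53.3 CPM in WT against 48.3, 64.7 and 158 CPM in Ocln-KO, a log2 fold change of 0.87 (adjusted p = 0.188, edgeR) that became 0.19 without replicate 3. Its partner Col5a1 had 81.5 to 89.5 CPM in WT against 72.7, 93.4 and 145 CPM in Ocln-KO, the same order of libraries, and its log2 fold change of 0.29 became -0.03 without replicate 3. For Col11a1, which seeds fibrils in cartilage, each Ocln-KO library (20.5, 25.8 and 40.0 CPM) lay above the WT range of 18.2 to 20.2 CPM. Its log2 fold change of 0.60 did not pass (adjusted p = 0.128, edgeR) except without Ocln-KO replicate 1 (adjusted p = 0.0451), and was 0.29 without replicate 3. Lower in each Ocln-KO library were Col27a1 and Col24a1, which form thin fibrils. Col27a1 had 31.5, 22.6 and 32.2 CPM in WT against 17.4, 21.4 and 16.5 CPM in Ocln-KO (log2 fold change -0.64, SE 0.17, adjusted p = 0.0536, edgeR). Col24a1 had 4.97, 2.96 and 4.66 CPM in WT against 1.68, 1.16 and 0.0888 CPM in Ocln-KO, the last of which is 3 counts. The log2 fold change of Col24a1 was -2.10 (SE 0.73, adjusted p = 0.107, edgeR), and without that library it was -1.56 (adjusted p = 0.0300). A less abundant type V chain, Col5a3, had 2.70 to 3.55 CPM in WT against 1.37 to 4.32 CPM in Ocln-KO, with overlap. The cartilage collagens Col2a1 and Col11a2, with at most 13 and 9 counts in a library, were not tested.

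**Figure D2:**
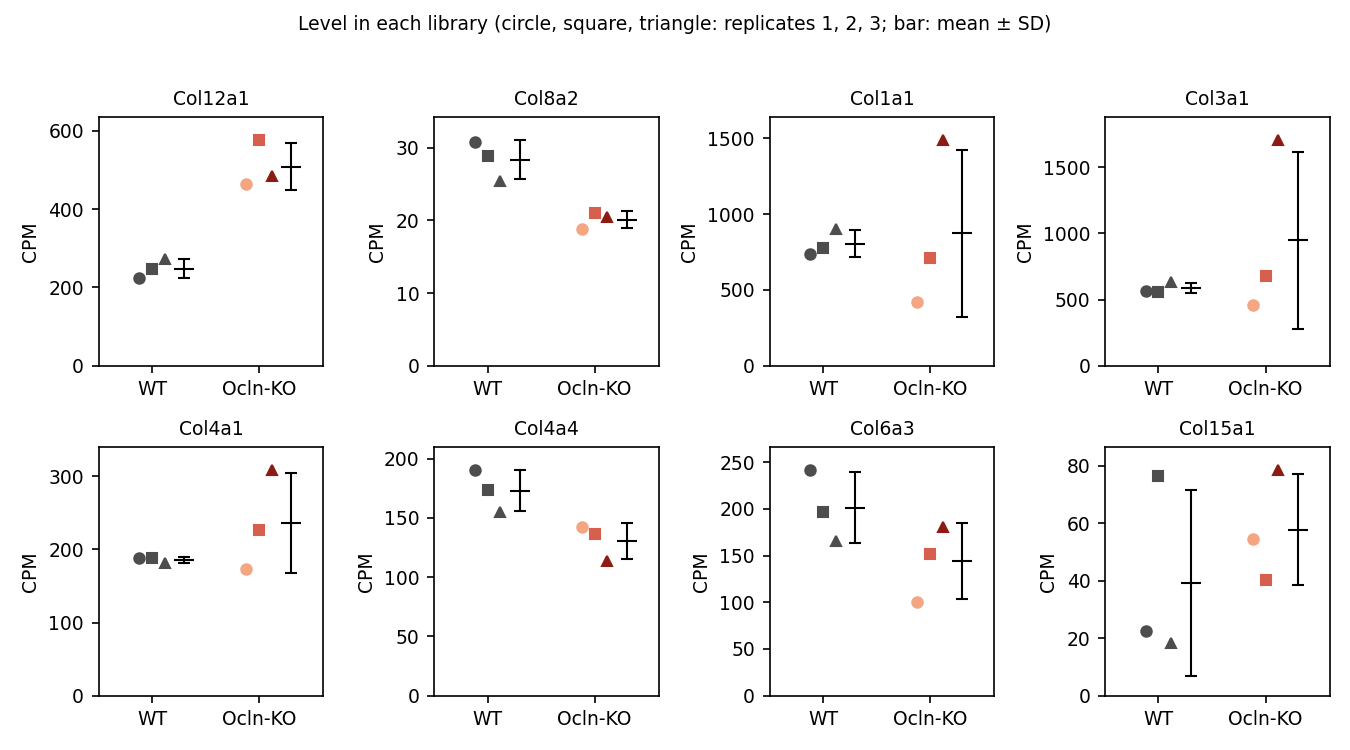
CPM of 8 collagen genes in each library (vertical axes start at 0; circles, squares and triangles are replicates 1, 2 and 3; bars are the mean ± SD of 3 libraries). Col12a1 and Col8a2 separate the genotypes, as does Col4a4, whereas Col1a1, Col3a1 and Col4a1 range from below WT in Ocln-KO replicate 1 to far above it in replicate 3, and WT replicate 2 stands apart for Col15a1.

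All 9 basement membrane collagens were tested and 0 were called by edgeR, with 3 at an unadjusted p under 0.05; DESeq2 called Col7a1 higher and Col4a4 lower. The class median was 0.34 with 6 positive and 3 negative members, and without Ocln-KO replicate 3 it was 0.10 with 7 positive. Col4a1 and Col4a2 build the type IV network found in nearly every basement membrane. Col4a1 (chromosome 8 from 11198423 to 11312826, minus strand) had 189, 188 and 181 CPM in WT against 173, 227 and 309 CPM in Ocln-KO. Col4a2 (chromosome 8 from 11312805 to 11449287, plus strand) had 150.4, 147 and 139 CPM in WT against 134, 181 and 257 CPM in Ocln-KO. For both, Ocln-KO replicate 1 lay below WT and replicates 2 and 3 above it. The log2 fold changes were 0.34 (SE 0.19, adjusted p = 0.264, edgeR) and 0.39 (SE 0.21, adjusted p = 0.257, edgeR), and without replicate 3 they were 0.10 and 0.12. Within a library the ratio of Col4a2 to Col4a1 stayed between 0.983 and 1.02 of the WT mean ratio in WT and between 0.987 and 1.06 in Ocln-KO.

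Type IV genes lie in head-to-head pairs, and their order on the chromosome can be set beside their levels. In the annotation the first exons of Col4a1 and Col4a2 share 22 bases on chromosome 8, Col4a4 and Col4a3 start 71 bases apart on chromosome 1, and Col4a6 and Col4a5 start 1308 bases apart on chromosome X. Col4a3, Col4a4, Col4a5 and Col4a6 were picked with their values known. Col4a3 and Col4a4, with Col4a5, form the tougher network of kidney glomerulus and some other epithelia. Col4a4 (chromosome 1 from 82448423 to 82586849, minus strand) had 190.2, 173 and 155 CPM in WT against 142, 136 and 113 CPM in Ocln-KO, without overlap (log2 fold change -0.40, SE 0.12, adjusted p = 0.0727, edgeR). DESeq2 gave an adjusted p of 0.0403 for it. Its neighbour Col4a3 (chromosome 1 from 82586921 to 82722059, plus strand) had 70.1, 66.0 and 44.8 CPM in WT against 53.4, 67.7 and 41.1 CPM in Ocln-KO, with overlap (log2 fold change -0.16, SE 0.22, adjusted p = 0.675, edgeR). On the X chromosome, Col4a6 was higher in each Ocln-KO library, at 67.5, 71.9 and 92.5 CPM against 64.6, 54.8 and 55.4 CPM in WT (log2 fold change 0.41, SE 0.14, adjusted p = 0.0974, edgeR, and 0.26 without replicate 3). Col4a5 had 95.1, 83.8 and 83.6 CPM in WT against 81.8, 88.8 and 139 CPM in Ocln-KO, with overlap (log2 fold change 0.24, adjusted p = 0.460, edgeR, and -0.04 without replicate 3). In the pairs on chromosomes 1 and X, 1 gene separated the genotypes and its neighbour did not, and the difference between neighbours was not tested. The bases between the starts of Col4a4 and Col4a3 are shown because a single short stretch precedes both genes, which had 16.3 ± 1.65 and 6.05 ± 1.36 CPM per kilobase of merged exons in WT (SD, n = 3 each). They are printed 5′ to 3′ on the minus strand, the strand of Col4a4 (RefSeq, GRCm38.p6, chr1:82586850-82586920). The motif GGGCGG was searched on both strands without a match in this window, as were the motif CCAAT and the motif TATAAA.
Col4a4 to Col4a3: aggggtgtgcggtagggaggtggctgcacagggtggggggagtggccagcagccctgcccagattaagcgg

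Of the remaining basement membrane members, Col15a1 (chromosome 4 from 47208161 to 47313167, plus strand) and Col18a1 (chromosome 10 from 77052178 to 77166548, minus strand) encode collagens with heparan or chondroitin sulfate chains. Col15a1 had 22.6, 76.5 and 18.4 CPM in WT against 54.5, 40.3 and 78.5 CPM in Ocln-KO. WT replicate 2 stood apart from the other WT libraries, and the log2 fold change of 0.56 (SE 0.52, adjusted p = 0.518, edgeR) became 1.49 without it (adjusted p = 0.0601). Col18a1 varied little, with 229, 223 and 227 CPM in WT against 255, 215 and 204 CPM in Ocln-KO. The log2 fold change of -0.01 (SE 0.10, adjusted p = 0.954, edgeR) turned to 0.07 when libraries were scaled by total counts alone. Col7a1, the anchoring fibril collagen, was singled out for its lack of overlap, with 28.9, 31.9 and 37.9 CPM in WT against 42.2, 41.7 and 61.5 CPM in Ocln-KO (log2 fold change 0.56, SE 0.18, adjusted p = 0.0832, edgeR, and 0.0304 with DESeq2), which became 0.35 without replicate 3.

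The beaded filament collagens are the type VI chains, and 6 of 6 were tested with 0 called by edgeR or DESeq2 and 0 at an unadjusted p under 0.05. Each of them overlapped between the genotypes. Col6a1 (chromosome 10 from 76708792 to 76726168, minus strand) had 325, 314 and 307 CPM in WT against 276, 348 and 537 CPM in Ocln-KO, a log2 fold change of 0.30 (SE 0.22, adjusted p = 0.414, edgeR). Col6a2, its neighbour on the same strand (76595762 to 76623630), had 237, 249.7 and 222 CPM in WT against 193, 253 and 343 CPM in Ocln-KO, a log2 fold change of 0.16 (SE 0.19, adjusted p = 0.631, edgeR). Both became negative without Ocln-KO replicate 3, at -0.02 and -0.08. Col6a3, the longest chain of the type VI heterotrimer (chromosome 1 from 90765923 to 90843971, minus strand), differed in direction. It had 242, 196 and 166 CPM in WT against 99.998, 151 and 180.3 CPM in Ocln-KO, a log2 fold change of -0.48 (SE 0.22, adjusted p = 0.193, edgeR). Ocln-KO replicates 1 and 2 lay below WT and replicate 3 within its range. Measured within each library, the ratio of Col6a3 to Col6a1 was 0.569, 0.683 and 0.528 of the WT mean ratio in Ocln-KO, below the WT libraries at 1.17, 0.982 and 0.850. Col6a5, which can take the place of Col6a3, had 189 to 246 CPM in WT against 182 to 232 CPM in Ocln-KO. Col6a4 and Col6a6 stayed under 13 CPM in each library.

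Collagen XII was the one collagen called higher. Col12a1, a FACIT collagen found on fibrils of tendon, fascia and other loaded tissue (chromosome 9 from 79598991 to 79718831, minus strand), had 224, 247 and 272 CPM in WT against 466, 577 and 485 CPM in Ocln-KO. Every Ocln-KO library lay well above every WT library, and the mean rose from 248 ± 24.0 to 509 ± 59.4 CPM (SD, n = 3 each). This is a 2.05-fold difference, with a log2 fold change of 1.04 (SE 0.12, adjusted p = 0.00863, quasi-likelihood test of edgeR). Unlike types I and III, it was not highest in Ocln-KO replicate 3, and without that library the log2 fold change was 1.07 (adjusted p = 0.00366). Over 13 alternatives it ran from 0.94 to 1.12 with an adjusted p under 0.05 in 11, the exceptions being a replicate block (0.0572) and leaving out WT replicate 1 (0.0677). On a per-kilobase scale over merged exons, Col12a1 ranked 12th among collagens in WT, at 16.3 CPM per kilobase, and 5th in Ocln-KO, at 33.4 CPM per kilobase. With the longest transcript as length it ranked 10th in WT and 6th in Ocln-KO.

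Of the FACIT collagens, 7 of 9 were tested, with 1 called higher and 0 lower, and 4 at an unadjusted p under 0.05. Col16a1, singled out for its lack of overlap, had 25.3, 25.6 and 21.9 CPM in WT against 27.6, 31.6 and 53.2 CPM in Ocln-KO (log2 fold change 0.62, SE 0.23, adjusted p = 0.124, edgeR, and 0.0493 with DESeq2), which became 0.28 without replicate 3. Col14a1, the closest relative of Col12a1 in structure, did not separate the genotypes. It had 95.2, 96.8 and 70.7 CPM in WT against 79.4, 93.1 and 143 CPM in Ocln-KO (log2 fold change 0.27, adjusted p = 0.475, edgeR, and -0.02 without replicate 3). Col20a1 was lower in each Ocln-KO library, at 38.1, 44.7 and 29.6 CPM against 46.2 to 54.7 CPM in WT, but did not pass (log2 fold change -0.43, adjusted p = 0.113, edgeR). Col9a1, Col9a3 and Col22a1 stayed under 2 CPM in each library, and the untested Col9a2 and Col19a1 reached at most 20 and 2 counts.

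Among the short-chain collagens, 2 of 3 were tested. Col8a2 (chromosome 4 from 126286793 to 126314330, plus strand), a chain of the type VIII network of vessel walls and Descemet's membrane, had 30.8, 28.9 and 25.5 CPM in WT against 18.8, 21.0 and 20.5 CPM in Ocln-KO. The genotypes did not overlap, and the mean dropped from 28.4 ± 2.69 to 20.1 ± 1.13 CPM (SD, n = 3 each). The log2 fold change was -0.50 (SE 0.11, adjusted p = 0.0370, quasi-likelihood test of edgeR). This call was close to the threshold. The value kept its sign over 13 alternatives, between -0.57 and -0.41, but the adjusted p was under 0.05 in 5 of them and lay between 0.0511 and 0.139 without 1 library. Scaling by total counts alone gave 0.0521. Its partner Col8a1 had 16.7, 17.4 and 11.5 CPM in WT against 17.4, 19.3 and 10.6 CPM in Ocln-KO, with overlap (log2 fold change 0.05, adjusted p = 0.914, edgeR). Col10a1, the collagen of hypertrophic cartilage, had 1 count in all. The 250 bases before the RefSeq start of Col8a2, which lies 1 base after the GENCODE start given above, are shown because it was the one collagen called lower (RefSeq, GRCm38.p6, chr4:126286544-126286793, plus strand). Capitals mark GGGCGG on either strand, found 4 times with overlap, while the motif CCAAT was searched on both strands and not found, and likewise the motif TATAAA.
Col8a2 upstream: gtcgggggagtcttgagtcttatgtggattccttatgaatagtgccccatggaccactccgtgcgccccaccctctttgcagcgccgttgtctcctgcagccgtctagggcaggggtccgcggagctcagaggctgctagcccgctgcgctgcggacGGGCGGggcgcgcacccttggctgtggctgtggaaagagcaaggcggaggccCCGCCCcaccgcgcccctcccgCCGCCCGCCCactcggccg
RefSeq windows of 300 bases around a gene start were available for 35 of the 44 members, in 38 windows. GGGCGG was present in 60.5% of them and in 35.7% of all 32851 windows, CCAAT in 34.2% and 37.4%, and TATAAA in 13.2% and 13.6%.

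The 4 transmembrane collagens were tested and 0 were called by edgeR or DESeq2, with 0 at an unadjusted p under 0.05. Col17a1, the hemidesmosomal collagen of basal epithelial cells (chromosome 19 from 47646344 to 47692094, minus strand), had 18.3, 18.7 and 18.9 CPM in WT against 24.7, 17.9 and 22.3 CPM in Ocln-KO. Replicate 2 lay below the narrow WT range and the other Ocln-KO libraries above it (log2 fold change 0.21, SE 0.14, adjusted p = 0.343, edgeR). Col13a1 was lower in each Ocln-KO library, at 3.30 to 3.46 CPM against 4.12 to 4.73 CPM (adjusted p = 0.249, edgeR). Col23a1 and Col25a1 overlapped. Of the last class, Col28a1 was tested and not called, and Col26a1 had at most 2 counts in a library.

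Levels between genes were set side by side only per kilobase of merged exons. In WT the 4 highest members were Col1a1, Col6a1, Col3a1 and Col1a2, at 123, 72.0, 59.8 and 58.6 CPM per kilobase. With the longest transcript as length the same 4 genes led, in the order Col1a2, Col1a1, Col3a1 and Col6a1. In Ocln-KO the 4 were again highest under both lengths.

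Collagen levels spread more widely among Ocln-KO than among WT libraries. The SD of log2 CPM was larger among Ocln-KO than among WT libraries for 29 of 38 members (76.3%), against 60.4% of all tested genes. Its median was 0.15 in WT and 0.44 in Ocln-KO for collagens, and 0.18 and 0.24 for all tested genes. Ocln-KO replicate 3 was the highest of the 6 libraries for 21 of 38 members (55.3%), against 22.8% of all tested genes, and for 7 of 9 fibrillar members. Ocln-KO replicate 1 was the lowest and replicate 3 the highest of the Ocln-KO libraries for 18 of 38 members, against 20.6% of all tested genes. Set against the WT range, replicate 1 had 9 members above and 19 below, replicate 2 had 16 and 13, and replicate 3 had 23 and 10. Over all tested genes the shares above and below were 34.6% and 35.7%, 33.9% and 35.1%, and 36.5% and 37.4% for replicates 1, 2 and 3. Among the 9 fibrillar members the numbers above and below were 1 and 7, 5 and 4, and 7 and 2. Summed over all 44 members, collagens took 4767, 4767 and 4878 CPM in WT against 4074, 5208 and 8386 CPM in Ocln-KO. The WT libraries were thus nearly equal, and the Ocln-KO libraries lay on both sides of them.

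**Figure D3:**
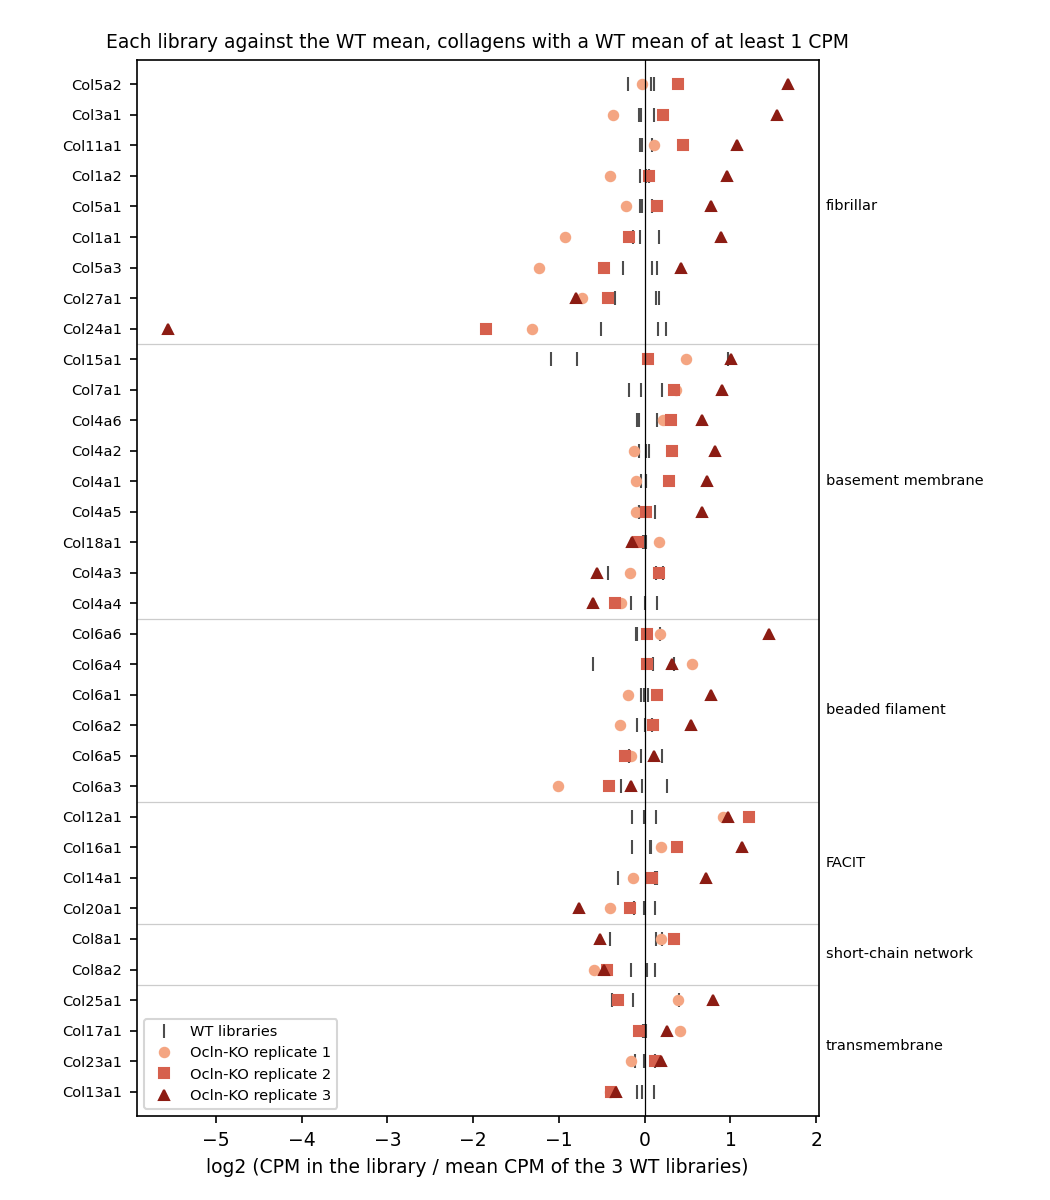
Log2 of the CPM in each library over the mean CPM of the 3 WT libraries (horizontal axis), for the 34 collagen genes with a WT mean of at least 1 CPM, grouped by type; bars are WT libraries and symbols Ocln-KO libraries. The dark triangles of replicate 3 lie to the right for Col1a1, Col1a2, Col3a1, Col4a1, Col4a2, Col5a1, Col5a2, Col6a1 and Col6a2, Col12a1 shows 3 Ocln-KO symbols together near 1, and the far left point of Col24a1 rests on 3 counts.

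Because the total moved between libraries, composition was also measured within each library. Fibrillar members made up 42.0, 43.0 and 47.0% of collagen counts per kilobase in WT and 35.2, 41.6 and 54.4% in Ocln-KO. The means of 44.0 ± 2.65% and 43.7 ± 9.82% (SD, n = 3 each) differed by -0.23 percentage points (exact two-sided permutation test, p = 0.9, where the smallest possible is 0.1). Ocln-KO replicate 1 lay below the WT range and replicate 3 above it. Without replicate 3 the difference was -5.59 percentage points, and without replicate 1 it was 4.05. FACIT members made up 7.19 ± 0.168% in WT and 9.31 ± 2.42% in Ocln-KO, at 11.0, 10.4 and 6.54% in replicates 1, 2 and 3. This share includes Col12a1, at 16.3 CPM per kilobase in WT and 33.4 in Ocln-KO, so it is not independent of that call. The share without Col12a1 was not computed.

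Ratios between chains of the same library, for 11 pairs chosen with values known, moved less than the levels for some pairs. Col3a1 to Col1a1 was 1.47, 1.31 and 1.57 times the WT mean ratio in Ocln-KO, above the WT libraries at 0.957 to 1.06. Thus Ocln-KO replicate 1, with the lowest levels of both, and replicate 3, with the highest, shared a shift of this ratio. Col12a1 to Col1a1 was 3.57, 2.64 and 1.06 times the WT mean ratio in Ocln-KO, so the ratio in replicate 3 lay just above the WT maximum of 1.03. Col5a2 to Col5a1 was 1.13, 1.18 and 1.86 against at most 1.12 in WT. Col1a1 to Col1a2 was 0.696, 0.852 and 0.954 against at least 0.953 in WT, with overlap. As the pairs were chosen with their values known, no test is given.

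**Figure D4:**
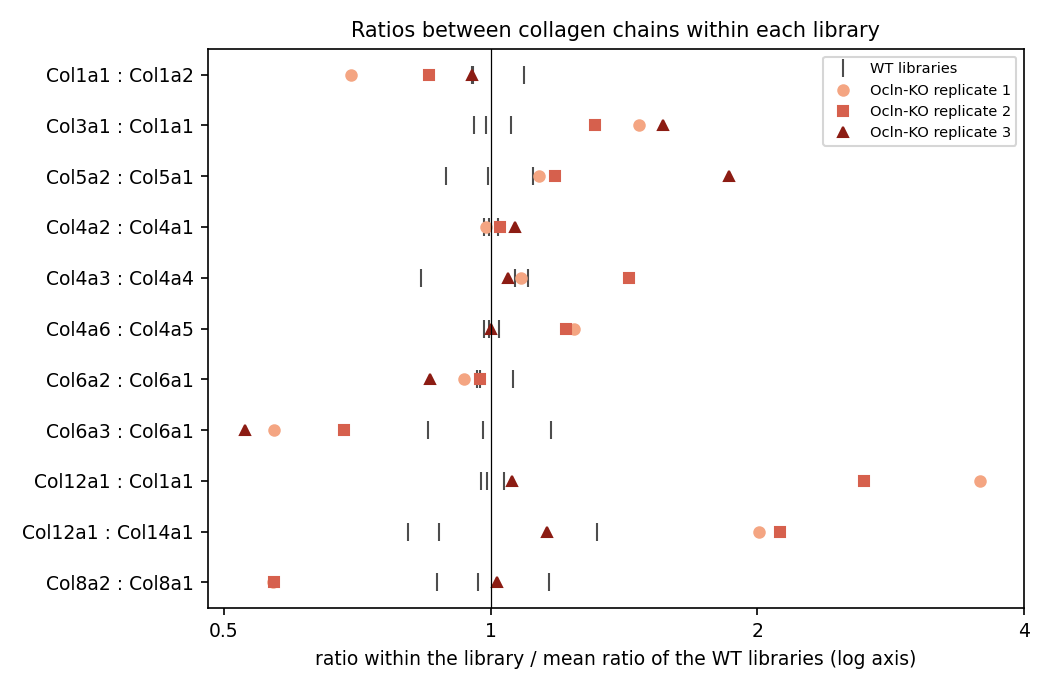
Ratio of 2 chains within each library, divided by the mean of that ratio in the WT libraries (log axis), for 11 pairs; bars are WT libraries and symbols Ocln-KO libraries. Col3a1 to Col1a1 (1.31 to 1.57) and Col6a3 to Col6a1 (0.528 to 0.683) place the 3 Ocln-KO libraries on one side of WT, whereas Col4a2 to Col4a1 stays near 1 in all libraries.

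Of 79 other genes that make, bind or sense collagen, 74 were tested, and 4 (5.41%) were higher and 3 (4.05%) lower in Ocln-KO, beside 3.91% and 5.04% of all tested genes (45 positive and 29 negative log2 fold changes, median 0.06). Among 18 tested genes of chain folding and modification, P4ha2, a prolyl hydroxylase subunit, was the one called. It fell from 22.0, 16.5 and 19.0 CPM in WT to 10.6, 10.1 and 8.52 CPM (log2 fold change -0.98, SE 0.16, adjusted p = 0.0195, edgeR), while its paralog P4ha1 had 24.8 to 29.2 CPM in WT against 26.6 to 28.1 CPM in Ocln-KO. Of 14 genes of propeptide cleavage and cross-linking, Mep1a, a metalloprotease able to trim procollagen, had 9.94, 9.82 and 20.3 CPM in WT against 3.74, 4.27 and 1.98 CPM in Ocln-KO (adjusted p = 0.0267, edgeR), and the lysyl oxidases Lox and Loxl1 to Loxl4 overlapped between the genotypes. Fibril-associated proteins, a list set with earlier results of these data known, were positive for 11 of 14 genes, with a median of 0.64. Their median log2 ratio to the WT mean was 0.15, 0.39 and 0.65 in Ocln-KO replicates 1, 2 and 3. In this group 2 genes passed, Fn1, fibronectin, with 94.1, 97.9 and 82.6 CPM in WT against 132, 249 and 317 CPM in Ocln-KO (log2 fold change 1.35, adjusted p = 0.0316, edgeR), and Thbs1, thrombospondin, with a log2 fold change of 0.72 (adjusted p = 0.0184, edgeR). In 19 basement membrane components besides collagens, the laminin chain Lama5 was higher, with a log2 fold change of 0.35 (adjusted p = 0.0499, edgeR). Itga2, a subunit of a collagen-binding integrin, was the one called among 9 tested receptors, with 2.54, 3.16 and 2.94 CPM in WT against 8.01, 5.96 and 5.83 CPM in Ocln-KO (log2 fold change 1.20, adjusted p = 0.0248, edgeR). Without Ocln-KO replicate 3, 37 of the 74 tested genes were positive and 37 negative, with a median log2 fold change of 0.01. The calls among these genes moved with the libraries used, as did those over all genes. Without WT replicates 1, 2 and 3 the 4 higher genes became 0, 0 and 0, and the 3 lower genes 0, 1 and 0. Over all genes, 770 higher and 992 lower became 4 and 19, 85 and 145, and 16 and 40. Without Ocln-KO replicates 1 and 2 the 4 higher genes became 9 and 1, where 782 and 220 were higher over all genes. The 3 lower genes became 1 without Ocln-KO replicate 2, where 342 were lower over all genes. The losses are thus not particular to these genes.

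The summed levels of markers of cells that make or surround collagen are given here, and their part in the collagen values was not tested. Beside the counts of called markers stand the 3.91% of all tested genes called higher and the 5.04% called lower. Counts at an unadjusted p under 0.05 are again given without the share over all tested genes. The summed level of 8 smooth muscle genes was 1252 to 1505 CPM in WT against 1699.9 to 2288 CPM in Ocln-KO, with 3 called higher (Myh11, Actg2 and Synpo2). For 11 fibroblast genes it was 945 to 1049 CPM in WT against 1061 to 1229.7 CPM in Ocln-KO, with 0 called and 6 at an unadjusted p under 0.05. Without Ly6a, left out after its values were seen, the fibroblast sum was 889 to 985 CPM in WT. In Ocln-KO replicates 1, 2 and 3 it was 956, 980.2 and 1072 CPM, with overlap. Gsn was the highest of these genes, at 461 to 588 CPM in WT against 456 to 495 CPM in Ocln-KO. The overlap of the sums therefore says little of the other fibroblast genes. The log2 fold change was positive for 9 of the 11 genes and negative for 2, with a median of 0.36, and 7 were highest in Ocln-KO replicate 3. The 8 macrophage genes had a summed level of 150.4 to 172 CPM in WT against 175, 228 and 275 CPM in Ocln-KO replicates 1, 2 and 3, with 0 called and 6 at an unadjusted p under 0.05. T and B lymphocyte genes summed to 2.67 to 3.29 CPM in WT and 4.96 to 9.71 CPM in Ocln-KO, with 0 of 4 tested genes called and 2 at an unadjusted p under 0.05. Endothelial genes, with 0 of 8 called and 2 at an unadjusted p under 0.05, summed to 126 to 145 CPM in WT and 131 to 165 CPM in Ocln-KO, and basal cell genes, with Krt14 called higher of 5, to 205 to 211 CPM and 211 to 252 CPM. Of the 7 epithelial genes 0 were called and 2 had an unadjusted p under 0.05, and their sum was 26907 to 31285 CPM in WT against 18413 to 25949 CPM in Ocln-KO. Without Crisp1, also left out after its values were seen, the sums of 11490 to 15487 CPM and 9034 to 16789 CPM overlapped. Adam7 and Lcn5 made up most of these sums, so the overlap says little of the other genes. The log2 fold change was negative for 6 of the 7 genes and positive for 1, with a median of -0.20, and Krt18 was at -0.0008. Krt8 was lower in each Ocln-KO library, at 188 to 231 CPM against 250 to 288 CPM in WT (adjusted p = 0.108, edgeR). Sperm genes summed to between 189 and 253 CPM in WT and to between 64.2 and 270.3 CPM in Ocln-KO, with the lowest in replicate 3, and 0 of 6 were called or had an unadjusted p under 0.05. The summed level of adipocyte genes was 7.83 to 14.2 CPM in WT against 5.21, 2.92 and 0.592 CPM in Ocln-KO replicates 1, 2 and 3, where Adipoq, Plin1, Cidec and Cfd were at 0 in replicate 3, and 0 of 6 were called with 3 at an unadjusted p under 0.05. Of the Schwann cell genes, Mbp was called higher of 3 tested, while Sox10 stayed under 0.5 CPM. Of the cartilage genes, Sox9 was called higher of 2 tested, while Matn1 was at 0 in each library and Acan was lower in Ocln-KO replicate 3 (0.947 CPM) than in any WT library (4.44 to 7.56 CPM).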

How the data were processed

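Whole-epididymis RNA was depleted of rRNA and sequenced from directional libraries in a single lane. The authors aligned reads to GRCm38 (HISAT2 2.0.4 in the submitters' processing notes) and deposited raw counts per gene and library. The strand setting of the counting and the handling of multi-mapped reads are not given in the sources used here. Merged exons of collagen genes shared at most 6.07% of their length with another annotated gene, and those of Col12a1 and Col8a2 none.

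The count table was matched to samples by column name, with 0 columns unmatched. In R 4.3.3, genes were kept by filterByExpr, scaled by TMM factors and compared with edgeR 4.0.16 (glmQLFit, glmQLFTest) in a model of genotype. Alternatives used DESeq2 1.42.0, limma-voom (limma 3.58.1), RLE factors, total counts only, no filter, a replicate block, a minimum of 10 counts in all 6 libraries, a 2-fold threshold and each library left out. The fits were tested on simulated data. Lengths and coordinates are those of GENCODE M21 on GRCm38. Same-numbered libraries of the genotypes did not deviate together across genes (correlations of -0.05, -0.03 and -0.00), which cannot exclude shared effects on some genes. The numbers were not taken as pairs in the main model, and the replicate block is the alternative that does so.

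Members were taken by symbol, and this rule, the classes and the other gene lists were set with earlier results of these data known. Full values are given for called members and for chains of types I, III, IV (Col4a1, Col4a2), VI (Col6a1 to Col6a3), XV, XVII and XVIII. Other members, and genes of the lists that were not called, were named after their values were seen. Counting limits of a value cover counting error only. Values of some genes on these lists are not reported here.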

Additional observations from a re-analysis of the deposited data

How the results depend on the processing

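Col12a1 and Col8a2 kept their direction under each alternative run. The 1 collagen called higher became 3 with DESeq2, 0 with the replicate block (10 members at an unadjusted p under 0.05) and 0 to 2 without a library. The 1 called lower became 4 with DESeq2, 2 with no count filter, 0 with total counts only (14 members at an unadjusted p under 0.05), 0 with the replicate block, 0 at 2-fold and 0 to 1 without a library. Scaling by total counts alone moved the median log2 fold change of all genes from 0.01 to 0.09. For the other genes of the collagen pathway, 4 higher became 7 with DESeq2, 0 with the replicate block, 2 at 2-fold and 0 to 9 without a library, and 3 lower became 0 with the replicate block, 1 at 2-fold and 0 to 3 without a library. Under the block, 10 genes were higher and 31 lower over all genes, against 770 and 992 without it. The block takes up residual degrees of freedom. Without a library, 4 to 782 genes were higher and 19 to 944 lower over all genes.

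The fibrillar share differed by 0.16 percentage points with the longest transcript, by 0.51 without types I and III, and by -5.59 to 4.05 without a library. The log2 fold change of Col1a1 turned to -0.069 with limma-voom and -0.070 with the block, and that of Col18a1 to 0.075 with total counts only. Without a library, the range was -0.51 to 0.45 for Col1a1, -0.16 to 0.58 for Col1a2, -0.047 to 1.03 for Col3a1, -0.015 to 0.49 for Col6a1, -0.081 to 0.34 for Col6a2, -0.11 to 0.052 for Col18a1, -0.35 to 0.0067 for Col4a3 and -0.038 to 0.38 for Col4a5. No cause was tested. Depth limits the untested members, which had at most 20 counts in a library.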
